A study of Homo sapiens with 12 samples.

Results

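The genes examined here belong to the interferon response and to the sensing of nucleic acids. They are 41 genes given by name, each matched by symbol to 1 Ensembl gene ID among the 60671 IDs of the count table, and compared across 3 human leukemia lines by RNA-seq. K562 is an established erythroleukemia line and served as the parental control. K/VP.5 is a clone selected from K562 by exposure to etoposide, a drug that poisons DNA topoisomerase II, and is resistant to it. K562/SSedit-2 is 1 clone of K562 in which CRISPR/Cas9 with homology-directed repair altered the 5′ splice site between exon 19 and intron 19 of TOP2A, the gene of topoisomerase IIα, on some but not all of its alleles. All 3 lines thus share the K562 background, and each derived line is a single clone, so that a change from K562 cannot be told apart from clonal drift. Each line was represented by 4 replicates of total RNA from cells in logarithmic growth, and the labels name no interferon, virus or transfected nucleic acid. The labels do not say that replicates came from separate cultures, so p-values measure the spread between these samples, which may be technical.

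Cells detect foreign or misplaced nucleic acid through dedicated sensors. RNA sensors of the RIG-I family act through the mitochondrial adaptor MAVS, and the DNA sensor cGAS makes a cyclic dinucleotide that activates STING, and both routes reach the kinase TBK1 and the factors IRF3 and IRF7, which switch on type I interferon genes. Secreted interferon then acts through its receptor, JAK kinases and a complex that contains STAT2 and IRF9, which binds the interferon-stimulated response element (ISRE) in the promoters of many antiviral genes. Some of these genes also have a basal level without added interferon. K562 cells are known to carry a deletion of the type I interferon gene cluster.

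Library totals were 36883518 to 43648830 counts for K562, 28981722 to 39944440 for the selected line and 32355417 to 37619488 for the edited clone. Levels are given as CPM, the share of a library's counts on a common scale, adjusted by edgeR's TMM factor, and 18626 genes passed the filter on low counts. TOP2A, which checks the labels, was at 402 ± 59.1 CPM in the parental line, 275 ± 7.50 CPM in the selected line and 192 ± 16.0 CPM in the edited clone (SD, n = 4). The erythroid markers GATA1, KLF1 and TFRC were present in every line, while the summed level of 3 fibroblast markers was 4.54 to 11.8 CPM in K562 libraries, 46.4 to 58.2 CPM in K/VP.5 libraries and 4.47 to 8.26 CPM in those of the edited clone, carried by COL1A1 and COL1A2 and not by DCN, whose mean was 0.134 CPM in K/VP.5. Of 3 T cell markers, CD2 was at 0 counts in both derived lines, and the summed level, almost all CD3D, was 23.2 to 50.7, 6.88 to 10.9 and 36.9 to 53.0 CPM. Whether these differences in markers take part in the results was not tested. K562 replicate 2, the deepest library, stood apart, with 38 genes of at least 15 counts that exceeded every other library by 2.5 times or more, such as COL6A3 and MMP2, and 2 of these genes were the members MX1 and IFIT1. These ratios are of counts not scaled for depth, and are smaller in CPM. K562 replicate 1 had 28 such genes, none of them a member, and the other libraries had 0 to 3.

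Of the 41 genes, 30 passed the filter and 11 were too low to compare. The 11 were CGAS, IFI44, IFI44L, IFIT1, IFIT2, IFIT5, MX1, MX2, OAS1, OAS2 and OASL. They include the sensor cGAS itself, most of the oligoadenylate synthetases that activate RNase L, most IFIT proteins, which bind viral RNA, and both MX GTPases. No library held more than 20 counts of any of them. CGAS had 1, 7, 1 and 2 counts in K562 (in the order of replicates 1 to 4, as throughout), 5, 2, 1 and 4 in the selected line, and 2, 3, 0 and 4 in the edited clone. These counts overlap in all 3 lines. MX1 had 5, 20, 4 and 3 counts in K562, 0, 1, 0 and 1 in the selected line and 4, 3, 0 and 6 in the edited clone. IFIT1 had 2, 20, 4 and 8 counts in K562, 5, 1, 1 and 2 in the selected line and 7, 6, 4 and 6 in the edited clone. For both genes the highest count was in K562 replicate 2, one of the libraries described above as standing apart. Summed over the 11 genes, that library had 114 counts and the other K562 libraries 27, 36 and 41, against 9 to 26 in K/VP.5 libraries and 14 to 37 in K562/SSedit-2 libraries. OAS1 was at 0 counts in each K562/SSedit-2 library, and a count of 0 allows up to 3 counts per library. No difference between lines was tested for these 11 genes, and a level this low does not show that a gene is silent.

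**Figure D1:**
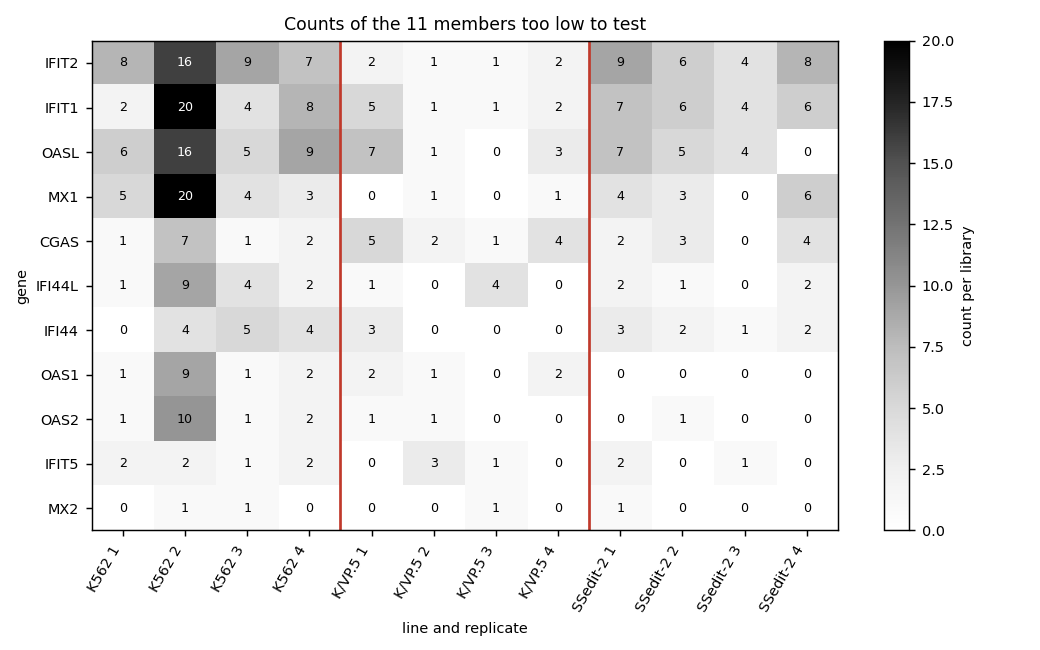
Counts per library of the 11 members too low to test, by line and replicate, with darker cells for higher counts up to 20. The K562 replicate 2 column holds the largest sum, 114 counts, and OAS1 is at 0 in all 4 K562/SSedit-2 libraries.

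Among the 30 tested genes, 12 were at 10 CPM or more in every line (ADAR, BST2, EIF2AK2, IFITM1, IRF3, MAVS, PARP14, SAMHD1, SP100, STAT2, TBK1 and TRIM25), and IFI27 and IRF9 had a mean under 1 CPM in every line. To compare genes with each other, levels were divided by the length of the canonical transcript. On that scale, BST2, the membrane tether that holds budding virus, was the highest member in K562 at 239 CPM per kb, followed by IFITM1 at 146, IRF3 at 64.8 and STING1 at 44.1. The IFITM1 level rests on K562 replicate 1, at 195 CPM where the others were at 64.9, 56.1 and 73.7 CPM, and without it IFITM1 was at 97.1 CPM per kb. RSAD2 at 0.207 and OAS3 at 0.169 CPM per kb were the lowest of the tested members in K562. In K/VP.5, STING1 stood at 1.48 CPM per kb, close to PARP9 at 1.49, and in K562/SSedit-2 it stood at 27.1.

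**Figure D2:**
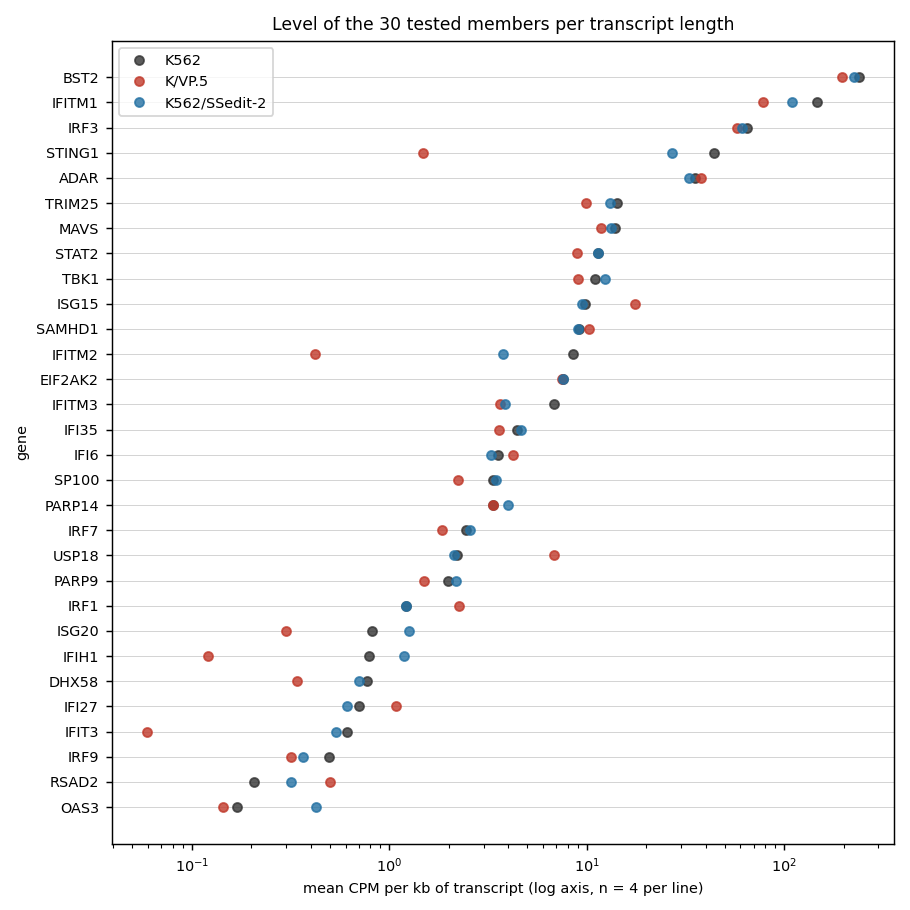
Mean CPM per kb of canonical transcript (log axis) for the 30 tested members in each line, 4 replicates each, ordered by the K562 level. BST2 leads at 239 CPM per kb in K562, and STING1 falls from 44.1 in K562 to 1.48 in K/VP.5.

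The first comparison asked how these genes differed in the etoposide-selected line. In K/VP.5, 6 members were lower than in K562 and 2 were higher by at least 2-fold at an adjusted p under 0.10 (edgeR quasi-likelihood test, Benjamini-Hochberg over all 18626 genes), the thresholds used by the study. The lower genes were STING1, IFITM2, IFIT3, IFIH1, ISG20 and DHX58, and the higher genes were USP18 and RSAD2. Lower members were 6 of the 30 tested, where 6.66% of all tested genes were lower, and higher members were 2 of 30 (6.67%), where 8.98% of all tested genes were higher. With the adjusted p alone and no fold cutoff, 18 of the 30 members were lower against 26.1% of all genes, and 5 (16.7%) were higher against 26.2%. The median log2 fold change was -0.29 over the tested members and 0.01 over all tested genes. The replicates of K562 and K/VP.5 did not overlap for 18 of the 30 members and for 43% of all tested genes. In bulk RNA, fewer cells expressing a gene and less RNA per cell cannot be told apart.

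In DNA sensing, STING1 (ENSG00000184584, chr5:139475533-139482935 on the minus strand, in GRCh38 as for all positions here), the adaptor at the endoplasmic reticulum that answers to the product of cGAS, was the member with the largest change. Its levels were 116, 95.1, 87.2 and 84.7 CPM in K562 and 3.72, 3.03, 2.92 and 3.19 CPM in K/VP.5. The K/VP.5 libraries lie far below every K562 library, with 94 to 149 counts each where K562 had 3240 to 4216. STING1 fell by 4.89 on the log2 scale (SE 0.126, edgeR adjusted p = 2.41e-14), which is 29.7-fold. The kinase TBK1, which acts downstream of STING and of MAVS, was at 33.0, 32.3, 32.2 and 36.0 CPM in K562 and 28.5, 26.7, 28.3 and 26.3 CPM in K/VP.5. These groups do not overlap, but the log2 difference of -0.28 (SE 0.0846, edgeR adjusted p = 0.0122) is small. SAMHD1, a dNTP hydrolase that limits reverse transcription, was 0.17 higher on the log2 scale (SE 0.0618, edgeR adjusted p = 0.0305).

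Among RNA sensors and adaptors, IFIH1 and DHX58 were lower, and no other tested member of the group passed both thresholds. IFIH1 encodes MDA5, which binds long double-stranded RNA, and DHX58 encodes LGP2, a relative of RIG-I without its signalling domains. IFIH1 (chr2:162267074-162318684) was at 3.16, 3.06, 2.1 and 2.92 CPM in K562 and 0.4, 0.293, 0.319 and 0.712 CPM in K/VP.5. The groups do not overlap, with a log2 fold change of -2.73 (SE 0.232, edgeR adjusted p = 6.13e-08). DHX58 (chr17:42101404-42112714) was at 2.14, 2.05, 1.94 and 1.9 CPM in K562 and 0.825, 0.798, 0.898 and 1.02 CPM in K/VP.5. Its groups do not overlap either, and its log2 fold change was -1.19 (SE 0.157, edgeR adjusted p = 1.02e-05). MAVS was at 137, 164, 178 and 171 CPM in K562 and 136, 135, 138 and 148 CPM in K/VP.5. K562 replicate 1 lies within the K/VP.5 range, and the log2 difference of -0.22 (SE 0.0809, edgeR adjusted p = 0.0324) passed the test below the fold cutoff. ADAR, which edits adenosine in double-stranded RNA, EIF2AK2, which encodes the kinase PKR, and OAS3 did not pass the test, with log2 differences of 0.11, -0.01 and -0.24. RIGI, the sensor related to IFIH1 and one of the other pathway genes considered further on, had a mean of 2.06 CPM in K562 and 2.56 in K/VP.5.

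Of the 7 antiviral effectors tested, 3 were lower and 1 was higher, where 6.66% of all tested genes were lower and 8.98% higher. IFITM2 (chr11:303655-309397), a membrane protein that hinders virus entry from endosomes, was at 13.7, 9.07, 5.76 and 5.57 CPM in K562 and 0.25, 0.665, 0.376 and 0.407 CPM in K/VP.5. The K562 replicates spread widely, yet the lowest was above every K/VP.5 library, and the log2 fold change was -4.32 (SE 0.402, edgeR adjusted p = 1.89e-07). Its neighbours and close relatives IFITM1 and IFITM3 had log2 differences of -0.90 (SE 0.324, edgeR adjusted p = 0.0328) and -0.89 (SE 0.225, edgeR adjusted p = 0.00389), with overlapping replicates. For IFITM1 the difference was -0.33 and did not pass the test without K562 replicate 1 (edgeR adjusted p = 0.163). The 3 genes are similar in sequence, and how reads matching several places were counted is not given in the sources used here, so the split between them is uncertain. IFIT3 (chr10:89327307-89377473), which strengthens RNA binding by IFIT1, was at 1.84, 1.66, 1.21 and 1.09 CPM in K562 and 0.15, 0.0798, 0.203 and 0.136 CPM in K/VP.5. These are 45 to 72 counts per library against 3 to 7, without overlap, and the log2 fold change was -3.33 (SE 0.312, edgeR adjusted p = 2.07e-07). ISG20 (chr15:88635670-88656483), an exonuclease acting on single-stranded RNA, was at 1.9, 1.47, 0.969 and 0.826 CPM in K562 and 0.575, 0.479, 0.405 and 0.441 CPM in K/VP.5. K562 replicates 1 and 2 were the higher pair, the groups do not overlap, and the log2 fold change was -1.42 (SE 0.307, edgeR adjusted p = 0.00113). Without K562 replicates 1 and 2 it was -0.90 and under the fold cutoff.

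RSAD2 (chr2:6865557-6898239), whose product viperin makes a chain-terminating nucleotide, was the effector that was higher. It was at 0.412, 1.01, 0.592 and 0.802 CPM in K562 and 2.8, 1.14, 1.16 and 1.69 CPM in K/VP.5. K/VP.5 replicate 1 was the highest and the closest libraries of the lines nearly meet, and the log2 fold change of 1.26 (SE 0.307, edgeR adjusted p = 0.00307) became 0.88 and lost the call without that replicate. BST2 differed by -0.29 (SE 0.0974, edgeR adjusted p = 0.0228) on the log2 scale, with overlapping replicates.

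The ISG15 system attaches the ubiquitin-like protein ISG15 to other proteins and takes it off again. USP18 (chr22:18150118-18177397), the protease that removes ISG15 and also restrains signalling at the type I interferon receptor, was the clearest higher member, at 4.54, 3.94, 4.55 and 3.4 CPM in K562 and 13.5, 11.5, 13.4 and 12.6 CPM in K/VP.5. Every K/VP.5 library lay above every K562 library, and the log2 fold change was 1.64 (SE 0.144, edgeR adjusted p = 1.01e-07), or 3.11-fold. USP41, a near-identical copy of USP18 on the same chromosome, had 1 to 16 counts in K562 libraries and 6 to 47 in K/VP.5, so reads shared by both genes are uncertain. ISG15 itself was at 6.54, 8.29, 5.49 and 4.74 CPM in K562 and 12.4, 8.99, 11.6 and 11.8 CPM in K/VP.5. It was higher in all 4 K/VP.5 libraries, by 0.84 on the log2 scale (SE 0.156, edgeR adjusted p = 0.000315), which is under the fold cutoff. TRIM25, a ubiquitin ligase that helps activate RIG-I, differed the other way, by -0.53 (SE 0.0716, edgeR adjusted p = 1.30e-05).

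Of the signal transducers and transcription factors none of the 5 changed by 2-fold. Without the fold cutoff 3 were lower and 1 higher, where 26.1% of all tested genes were lower and 26.2% higher. STAT2 was at 57.2, 48.5, 45.7 and 48.5 CPM in K562 and 39.7, 40.99, 38.2 and 38.1 CPM in K/VP.5. The groups do not overlap, with a log2 difference of -0.35 (SE 0.0729, edgeR adjusted p = 0.000886). IRF9, a DNA-binding partner of STAT2, was at 0.66, 1.01, 0.753 and 0.802 CPM in K562 and 0.45, 0.585, 0.55 and 0.474 CPM in K/VP.5, without overlap and with a log2 difference of -0.65 (SE 0.218, edgeR adjusted p = 0.0226). Exons of other annotated genes on the same strand cover 93.1% of its canonical transcript, chiefly those of a readthrough gene that had 20 to 46 counts per library, so its level of 14 to 44 counts is uncertain. IRF7 differed by -0.41 and IRF1, an early-induced activator, by 0.88 (SE 0.123, edgeR adjusted p = 1.87e-05), with no overlap for either. IRF3 did not pass the test (log2 difference -0.18, edgeR adjusted p = 0.116). Among other induced genes, the nuclear body protein SP100 (-0.59), PARP9 (-0.41) and IFI35 (-0.29) passed the test below the fold cutoff and IFI6, IFI27 and PARP14 did not.

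**Figure D3:**
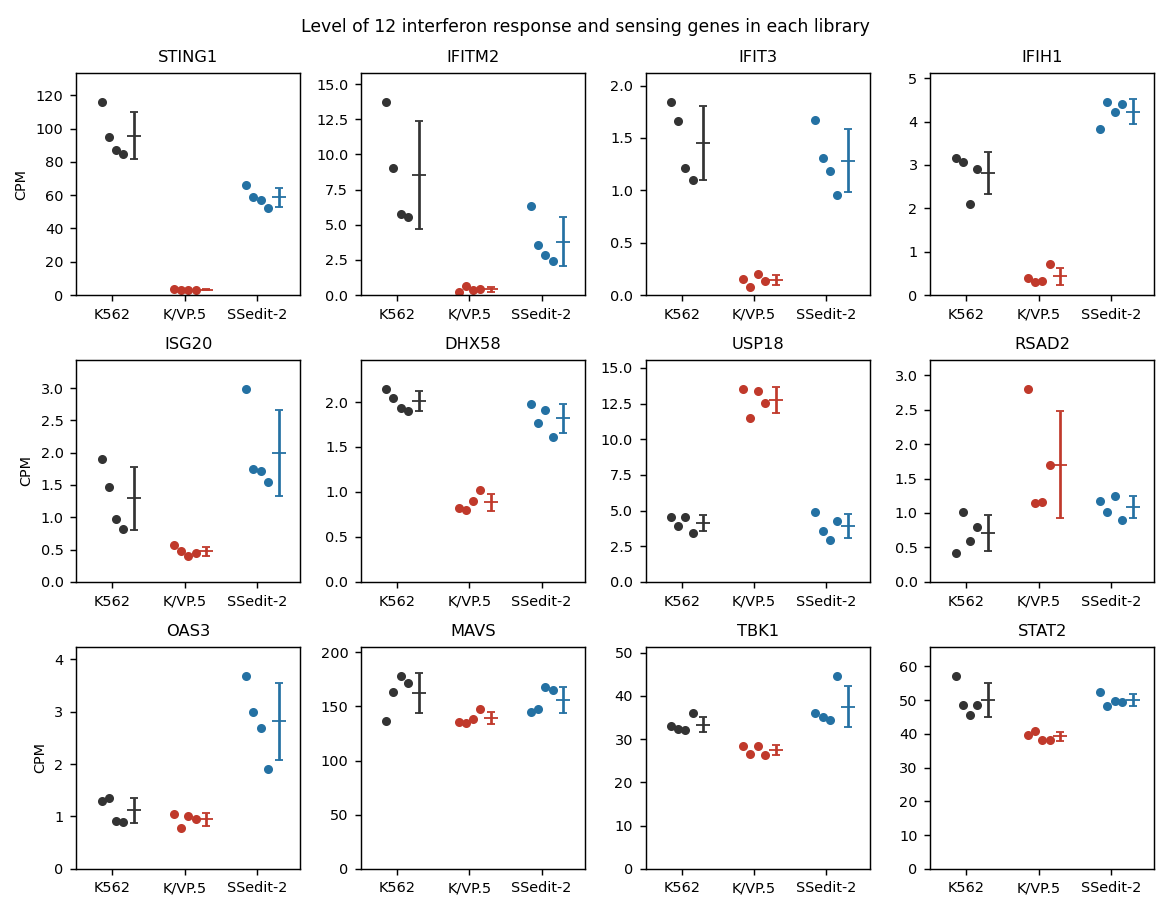
CPM of 12 members in each replicate of the 3 lines (points), with the mean and SD of 4 replicates beside them (bar), each panel on its own linear axis from 0. STING1, IFITM2, IFIT3, IFIH1, ISG20 and DHX58 are lower in every K/VP.5 library than in every K562 library, USP18 and RSAD2 are higher, and OAS3 is higher in every K562/SSedit-2 library.

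Because many of these genes are known to answer to ISRE-binding factors, the promoters of the members were searched for the ISRE core, spelled GAAANNGAA, in the 250 bases before each annotated start, on both strands and with overlapping matches counted apart. RefSeq promoters (GRCh38.p14) were at hand for 30 of the 41 members, tested or not. The core was present in at least 1 promoter of 18 of these 30 genes, of 2295 of 27305 genes in the whole promoter table (8.41%) and of 7.11% of those tested here. A GAS-type element, spelled TTCNNNGAA, was present in 9 of the 30 and in 8.09% of all genes. CGAS, DHX58, IFIT2, IFITM2, IRF3, IRF7, MX2, OAS2, OASL, STING1 and USP18 had no entry. All 5 called members with an entry, IFIT3, IFIH1, ISG20, RSAD2 and OAS3, held the core, and they moved in different directions: IFIT3, IFIH1 and ISG20 were lower in K/VP.5, RSAD2 was higher there, and OAS3 was higher in K562/SSedit-2. Their stretches around the matches are shown 5′ to 3′ in the direction of transcription, with the matches in capitals. A match on the opposite strand reads TTCNNTTTC.
IFIT3, first start (chr10:89327827-89327899, plus strand): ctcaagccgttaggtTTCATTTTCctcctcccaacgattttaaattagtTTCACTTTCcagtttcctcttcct
IFIT3, second start (chr10:89332415-89332502, plus strand): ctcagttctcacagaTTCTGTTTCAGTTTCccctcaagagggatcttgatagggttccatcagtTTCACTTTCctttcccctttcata
IFIH1 (chr2:162318685-162318863, minus strand): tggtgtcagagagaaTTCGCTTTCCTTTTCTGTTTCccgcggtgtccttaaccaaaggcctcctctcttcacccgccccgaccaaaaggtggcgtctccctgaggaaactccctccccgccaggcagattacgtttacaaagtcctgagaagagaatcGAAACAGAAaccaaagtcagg
OAS3 (chr12:112938316-112938473, plus strand): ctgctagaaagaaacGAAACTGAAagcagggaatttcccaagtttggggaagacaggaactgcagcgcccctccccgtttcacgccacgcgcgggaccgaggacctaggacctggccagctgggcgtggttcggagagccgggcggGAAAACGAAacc
ISG20 (chr15:88638932-88638970, plus strand): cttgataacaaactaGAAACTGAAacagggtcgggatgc
RSAD2, first start (chr2:6865791-6865829, plus strand): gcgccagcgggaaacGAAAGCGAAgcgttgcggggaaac
RSAD2, second start (chr2:6877618-6877656, plus strand): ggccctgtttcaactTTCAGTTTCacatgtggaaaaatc
The first match begins 99 bases before the second IFIT3 start, 164 before the IFIH1 start, 143 before the OAS3 start and 69 before the ISG20 start. ADAR, EIF2AK2, IFI35, IRF1, IRF9, MAVS, OAS1, SAMHD1, SP100, STAT2, TBK1 and TRIM25 had no match in this window.

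The second comparison asked what the edited clone showed. In K562/SSedit-2, 1 member was higher (OAS3) and 1 lower (IFITM2) by at least 2-fold, each 3.33% of the 30 tested, where 0.805% of all tested genes were higher and 1.26% lower. Without the fold cutoff 2 members (6.67%) were higher against 4.86% of all genes, and 3 (10.0%) were lower against 7.79%, and 25 did not pass the test. The median log2 fold change was -0.06 over the members and -0.01 over all tested genes. Same-numbered libraries of K562 and K562/SSedit-2 deviated together. When the fit took that number as a block, and without the fold cutoff, ISG20 and PARP14 passed the test as well, so that 4 members were higher against 6.35% of all genes and 3 were lower against 10.1%. The 2-fold calls were OAS3 and IFITM2 in that fit too. The K/VP.5 libraries, whose numbers were not taken as pairs, were part of it.

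OAS3 (chr12:112938051-112976460), which makes the 2-5A messenger that activates RNase L, was at 1.29, 1.36, 0.915 and 0.899 CPM in K562, 1.05, 0.771, 1.01 and 0.949 CPM in the selected line and 3.68, 3.0, 2.69 and 1.91 CPM in the edited clone. Every K562/SSedit-2 library lay above all others, although these 4 spread from 64 to 132 counts, and the log2 fold change from K562 was 1.34 (SE 0.213, edgeR adjusted p = 0.000852). OAS1 and OAS2, which flank OAS3 on chromosome 12, were at 0 and at 0 to 1 counts in the same libraries. IFITM2 was at 6.33, 3.56, 2.85 and 2.45 CPM in K562/SSedit-2, a range that overlaps that of K562. Within each of the 4 same-numbered pairs the K562 library was the higher, by 2.17, 2.55, 2.02 and 2.28 times, with a log2 fold change of -1.16 (edgeR adjusted p = 0.00109) with the block. In the fit without the block, which takes the libraries as unpaired, the log2 fold change of -1.16 (SE 0.310, edgeR adjusted p = 0.0301) became -0.83 without K562 replicate 1, -0.98 without K562/SSedit-2 replicate 4 and -0.57 without K562 replicates 1 and 2, each under the fold cutoff. IFITM3 differed by -0.82 (SE 0.224, edgeR adjusted p = 0.0344).

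STING1 was at 66.2, 59.1, 57.4 and 52.4 CPM in K562/SSedit-2, below every K562 library, with a log2 fold change of -0.70 (SE 0.101, edgeR adjusted p = 0.000303), or 1.63-fold. IFIH1 was at 3.82, 4.45, 4.22 and 4.42 CPM, above every K562 library, with a log2 difference of 0.59 (SE 0.181, edgeR adjusted p = 0.0590). The replicates of MAVS (145, 148, 168 and 165 CPM), TBK1 (35.9, 35.1, 34.4 and 44.6 CPM) and STAT2 (52.5, 48.2, 49.8 and 49.5 CPM) overlapped those of K562. Their log2 differences were -0.06, 0.17 and 0.00, with edgeR adjusted p of 0.743, 0.248 and 1. Within pairs TBK1 was higher in the edited clone in all 4, and with the block its log2 difference of 0.17 (SE 0.0788) did not pass the test (edgeR adjusted p = 0.207). IRF9 was at 0.642, 0.616, 0.469 and 0.656 CPM and its log2 difference of -0.44 (SE 0.215) did not pass the test (edgeR adjusted p = 0.240). USP18 at 4.91, 3.54, 2.97 and 4.3 CPM, IFIT3 at 1.67, 1.31, 1.19 and 0.955 CPM and DHX58 at 1.98, 1.77, 1.91 and 1.61 CPM overlapped K562 as well. Within pairs IFIT3 and DHX58 were lower in the edited clone in all 4 and did not pass the test with the block (edgeR adjusted p = 0.626 and 0.619), and USP18 was higher in 2 and lower in 2. ISG20 was at 2.99, 1.74, 1.72 and 1.55 CPM with a log2 difference of 0.64 (SE 0.262, edgeR adjusted p = 0.156), which became 1.16 and was called without K562 replicates 1 and 2. It was higher in the edited clone in all 4 pairs and passed the test with the block, below the fold cutoff (log2 difference 0.64, SE 0.177, edgeR adjusted p = 0.0336). RSAD2 was at 1.17, 1.02, 1.25 and 0.895 CPM, and its log2 difference of 0.60 (SE 0.321) did not pass the test (edgeR adjusted p = 0.287), nor did it with the block (edgeR adjusted p = 0.293), although it was higher in all 4 pairs.

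**Figure D4:**
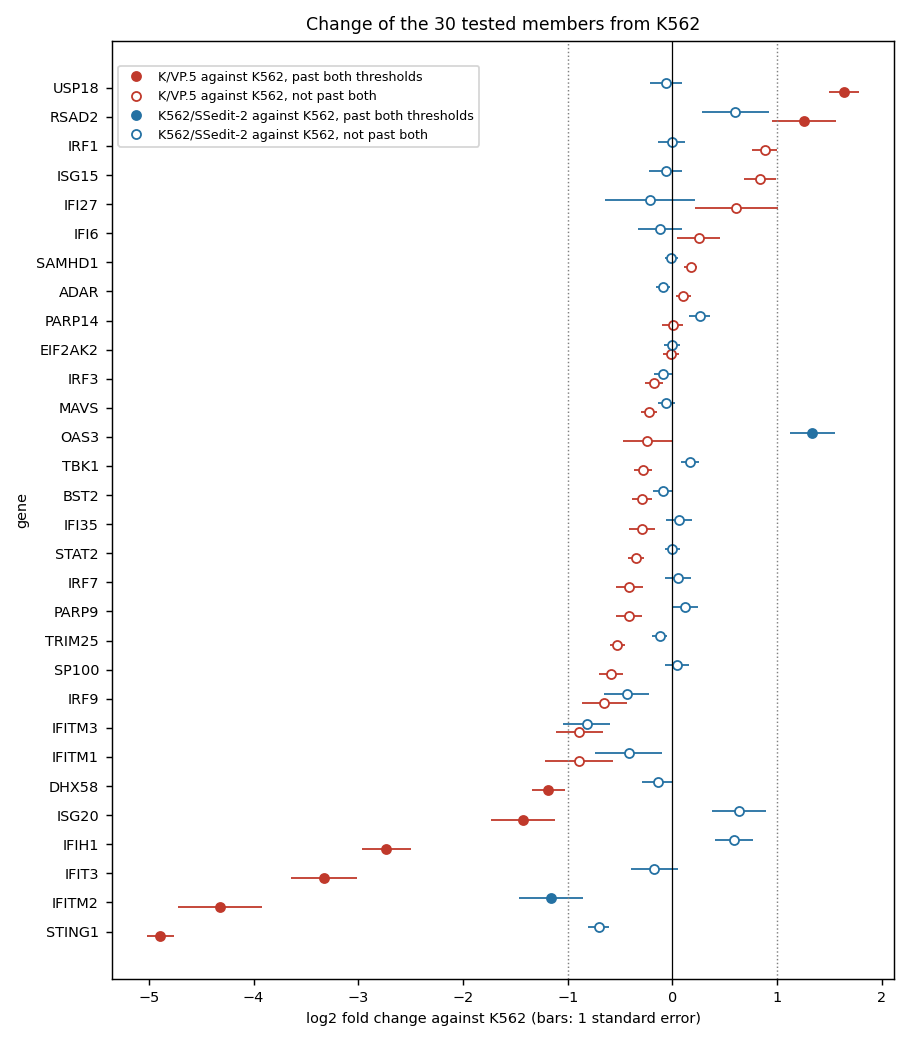
log2 fold change from K562 with 1 standard error for the 30 tested members in K/VP.5 (red) and K562/SSedit-2 (blue), filled where the 2-fold and adjusted p thresholds were both passed, with dotted lines at a 2-fold change. STING1 lies at -4.89 in K/VP.5 and at -0.70 in the edited clone, and both sets share the same K562 libraries.

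Since both derived lines were set against the same K562 libraries, they were also compared with each other. In K562/SSedit-2, 7 members (23.3%) were higher than in K/VP.5, against 6.2% of all tested genes, and 1 (3.33%) was lower, against 9.62%. The log2 differences were 4.19 for STING1 (SE 0.124, edgeR adjusted p = 1.29e-13), 3.32 for IFIH1 (SE 0.229), 3.16 for IFITM2 (SE 0.414), 3.15 for IFIT3 (SE 0.318), 2.06 for ISG20 (SE 0.299), 1.58 for OAS3 (SE 0.220) and 1.04 for DHX58 (SE 0.159). USP18 was the lower member, at -1.69 (SE 0.146, edgeR adjusted p = 7.04e-08). For these 8 genes no K562/SSedit-2 library overlapped the K/VP.5 range, but they were picked by passing the thresholds in this same comparison. The share of all tested genes without overlap was not counted for these 2 lines, so the separation adds no further support. RSAD2 overlapped and differed by -0.66 (SE 0.298, edgeR adjusted p = 0.0832).

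Interferon genes and the receptor pathway give the setting of these values, from a list of 100 other genes of the pathway written down by function. The list was chosen with earlier results of these data known, so its shares are no independent support. Of the 100 genes, 69 were tested. By 2-fold, 13 (18.8%) were lower in K/VP.5 against 6.66% of all tested genes, and 5 (7.25%) were higher against 8.98%. In K562/SSedit-2, 1 (1.45%) was lower against 1.26% of all tested genes and 1 (1.45%) was higher against 0.805%, shares near that background. Their median log2 fold changes were -0.08 and -0.01. Of 10 interferon genes, only IFNK passed the filter, at means of 0.343, 0.548 and 0.445 CPM in the parental, selected and edited lines, and no library had more than 2 counts of any of the other 9, IFNB1 and IFNA1 included. IFNAR1, a chain of the type I interferon receptor, was at 77.4 ± 5.72, 64.4 ± 3.39 and 76.2 ± 4.73 CPM (SD, n = 4) in the same order.

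The largest changes among these other genes in K/VP.5 included NLRX1, a mitochondrial protein that restrains MAVS, with means of 15.3 CPM in K562, 0.444 CPM in the selected line and 11.9 CPM in the edited clone (log2 fold change in K/VP.5 -5.09, SE 0.182, edgeR adjusted p = 1.25e-12). IKBKE, a kinase related to TBK1, had means of 4.47, 0.952 and 3.45 CPM (log2 fold change in K/VP.5 -2.21, SE 0.194, edgeR adjusted p = 9.36e-08). IFNLR1, a chain of the type III interferon receptor, had means of 0.815, 7.72 and 0.270 CPM and was called in both derived lines, higher in K/VP.5 (log2 fold change 3.24, SE 0.184) and lower in K562/SSedit-2 (-1.57, SE 0.257). TRIM26, a ubiquitin ligase, had 187 to 287 counts per library in K/VP.5, where K562 had 0 to 5 and the edited clone 0 to 3. SOCS1, an inhibitor of JAK kinases, was named after its values were seen. Genes not named above, such as BTN3A1 (log2 fold change -1.59), changed more in K/VP.5. SOCS1 had means of 16.1, 40.6 and 9.58 CPM, with a log2 fold change in K/VP.5 of 1.33 (SE 0.150, edgeR adjusted p = 1.70e-06).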

How the data were processed

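The authors mapped paired-end reads to GRCh38 with HISAT2 and deposited whole-number counts per Ensembl gene and sample from featureCounts, without normalization. The release of the annotation, the use of strand and the treatment of reads matching several places are not given in the sources used here, so overlapping and near-identical genes are uncertain. Symbols and positions came from GENCODE 44, in which 60401 of the 60671 IDs were found. The members and gene lists were chosen with earlier results of these data known.

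Genes passing edgeR's filterByExpr (minimum count 10) were scaled by TMM, and all 12 samples were fitted by line with the quasi-likelihood F test of edgeR 4.0.16 in R 4.3.3, with Benjamini-Hochberg adjustment over all tested genes. A gene was called at a log2 fold change of 1 or more in either direction and an adjusted p under 0.10. Standard errors were taken from the F statistic. CPM used the counts in tested genes times the TMM factor, so that 3 counts are 0.0691 to 0.102 CPM. Levels per kb used the canonical transcript. Members called in any comparison, and STAT2, IRF9, IFIH1, CGAS, STING1, MAVS, TBK1, were given with every replicate. In each comparison the other pathway genes with the largest changes at 1 CPM or more in a line came first. IFNAR1, RIGI, SOCS1 and USP41 were named after their values were seen. Exact two-sided permutation tests of 4 against 4 samples cannot go below p = 0.0286.

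Same-numbered samples were checked for shared deviations from their line means. Across genes, the 4 correlations were 0.135 to 0.292 for K562 with K562/SSedit-2, so the numbers were taken to pair those samples, and were -0.00265 to 0.269 for K562 with K/VP.5, which were not paired. Differently numbered libraries of K562 and K562/SSedit-2 correlated at -0.313 to 0.128, the highest close to the lowest same-number value. The labels name no pairs, so the pairing is uncertain, and the main fit used no block. Replicates of a line were not duplicates of each other. Alternatives used DESeq2 1.42.0 and limma 3.58.1. The steps were tested on simulated data for K/VP.5 against K562, in which 99 of 99 genes changed 3-fold and 99 of 100 changed 4-fold were recovered, with 5 unchanged genes called among 17623. The changed genes were drawn only from those with higher counts, and no change under 3-fold was simulated. Recovery of low-count genes such as IFIT3 and RSAD2, and of changes near the 2-fold cutoff, was therefore not tested.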

Additional observations from a re-analysis of the deposited data

Results flagged for a closer look

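In each derived line the change from K562 was compared by the direct contrast of K562/SSedit-2 with K/VP.5, and by at least 2-fold at an edgeR adjusted p under 0.10 7 members were higher in K562/SSedit-2 and 1 was lower, against 6.2% and 9.62% of all tested genes. On the log2 scale, as K562/SSedit-2 minus K/VP.5, the differences were 4.19 for STING1, 3.32 for IFIH1, 3.16 for IFITM2, 3.15 for IFIT3, 2.06 for ISG20, 1.58 for OAS3, 1.04 for DHX58 and -1.69 for USP18.

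Single libraries also lay far from the other 3 of their line. TBK1 in K562/SSedit-2 replicate 4 was at 44.6 CPM where the others were at 34.4 to 35.9. ISG20 in K562/SSedit-2 replicate 1 was at 2.99 CPM where the others were at 1.55 to 1.74. IFITM1 in K562 replicate 1 was at 195 CPM where the others were at 56.1 to 73.7, and PARP14 in the same library was at 31.4 CPM where the others were at 23.5 to 24.4. IFI6 in K562 replicate 2 was at 3.98 CPM where the others were at 2.36 to 2.58. In K562/SSedit-2 replicate 1, IFI27 was at 0.781 CPM where the others were at 0.298 to 0.348, and IFI35 was at 6.0 CPM where the others were at 5.29 to 5.31. ISG15 in K562/SSedit-2 replicate 4 was at 5.13 CPM, below the others at 6.25 to 6.32. These are 8 of 90 sets of 4 libraries examined, 3 lines for each of the 30 tested members, and chance flags about 1 in 20.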

How the results depend on the processing

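Under limma voom, the Wald test and the size factors of DESeq2, scaling by the upper quartile, a filter of 1 CPM in 4 samples, fits of only the compared lines and an adjusted p under 0.05, the count of members called in each direction stayed within 1.5 times the reported one in all 3 comparisons, and so it did with the replicate number as a block, which gave 2 higher and 6 lower members in the selected line, 1 and 1 in the edited clone and 7 and 1 between the derived lines. For the numbers of K/VP.5 with the other lines, which were not taken as pairs, same-number correlations ran from -0.0947 to 0.269.

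Without the filter on low counts, 11 members were lower in K/VP.5, against 4.34% of all genes in that fit, the added ones being MX1, IFIT1, IFIT2, OAS2 and OASL. In that fit 2 were lower in the edited clone against K562 (0.874% of all genes) and 2 against the selected line (6.19%), OAS1 being added in both, and against the selected line, where 4.05% of all genes were higher, IFIT2 (log2 difference 2.10) and MX1 (2.45) were added as higher in the edited clone. These genes have few counts, and the highest K562 counts of MX1, IFIT1, IFIT2, OAS1, OAS2 and OASL were in replicate 2. Without a fold cutoff, 5 members were higher and 18 lower in the selected line, against 26.2% and 26.1% of all genes, 2 and 3 in the edited clone, against 4.86% and 7.79%, and 15 and 6 between the derived lines, against 26.2% and 27.8%. With each replicate left out in turn, the counts ran from 1 to 3 higher and 6 to 8 lower in K/VP.5, against 8.69% to 9.35% and 6.35% to 7.3% of all genes, where RSAD2 was lost without K/VP.5 replicate 1, IFITM1 was added without K562 replicate 2, 3 or 4 or K/VP.5 replicate 1, IFITM3 without K562 replicate 3 or 4 or K/VP.5 replicate 2 and IFI27 without K562 replicate 2. They ran from 1 to 1 higher and 0 to 1 lower in K562/SSedit-2, against 0.69% to 1.05% and 1.01% to 1.6%, where IFITM2 was lost without K562 replicate 1 or K562/SSedit-2 replicate 4, and from 7 to 7 higher and 1 to 2 lower between the derived lines, against 6.29% to 6.97% and 9.14% to 10.2%, where IFI27 was added without K/VP.5 replicate 4 or K562/SSedit-2 replicate 1. Without K562 replicates 1 and 2, an alternative chosen after seeing the data, 4 members were higher in K/VP.5 (IFI27 and ISG15 added) and 5 lower (ISG20 lost), against 10.1% and 5.96% of all genes, and 2 were higher (ISG20 added) and 0 lower in K562/SSedit-2, against 0.972% and 0.88%, where the edgeR adjusted p of IFITM2 was 0.239. The cause was not tested. No called member changed direction under any of these alternatives.

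Depth limits the 11 untested members and those near 1 CPM, where a difference may go undetected. The lines are single clones and the replicates may be technical.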

Other observations

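Genes next to the called members were looked at within 100 kb in K/VP.5 after their values were seen. Over all tested genes, 6.66% were lower and 8.98% higher by at least 2-fold in K/VP.5, shares to set beside each count of neighbours here. Of 7 tested neighbours of STING1, 2 were also lower by at least 2-fold, of which NCOA4P4 had few counts. A regional change was not tested. The unnamed gene ENSG00000286403 had 207 to 519 counts per library in K562, where the selected line had 0 to 3 and the edited clone 192 to 360, and the pseudogene NCOA4P4 had 4 to 13, 1 to 5 and 3 to 12 counts. The median log2 fold change of the 7 neighbours was -0.36. Of 17 tested neighbours of IFITM2, SIGIRR alone was called, with a log2 fold change of -1.76 (SE 0.146), and of 5 neighbours of USP18 none was. Of 3 neighbours of RSAD2, RNF144A was higher, with a log2 fold change of 1.56 (SE 0.107), GRASLND was lower at -1.02 (SE 0.361) with 5 to 23 counts per library in both lines, and CMPK2, which shares its start region with RSAD2 on the opposite strand, differed by 0.57 (SE 0.137, edgeR adjusted p = 0.00273). Of 11 neighbours of DHX58, C17orf113 alone was called, and it was higher at 1.41 (SE 0.271) where DHX58 was lower. Neither of 2 neighbours of ISG20 was called, and IFIH1 and IFIT3 had no tested neighbour.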
